A study of Mus musculus with 4 samples.

Results

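Ribosomal protein genes were examined in lists of regions whose chromatin accessibility differed between T helper cell populations of the mouse. The genes were chosen by name: protein-coding genes called Rpl or Rps and a number, with an optional final letter a, x or l, together with Rplp0, Rplp1, Rplp2 and Rpsa. This gave 81 of 21887 nuclear protein-coding genes of the RefSeq gene table on build GRCm38.p6, 50 of the large and 31 of the small ribosomal subunit. A listed region belonged to a gene when its midpoint lay within 1 kb of either end of the gene. Such regions made up 149 of the 92372 rows of the 6 lists and 89 of 59843 distinct regions, and they belonged to 69 of the 81 genes (85.2%), where 49.8% of all genes had a region in some list. The other 12 genes had none by this rule.

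House dust mite (HDM) extract, an allergen, was given to the mice through the nose for sensitization and challenge as a model of asthma, and cells were taken at day 15. ATAC-seq, in which a transposase inserts sequencing adapters into open chromatin, was performed on 1000 cells of each of 4 sorted CD3+ CD4+ populations, with 3 biological replicates per population. From lung and airways came the Th2 cells, sorted as CD44+ ST2+ CD30L+, the other effector cells, which are non-Th2 memory cells sorted as CD44+ ST2- CD30L+, and regulatory T cells (Treg), sorted as CD25hi CD30L-. Naive cells, sorted as CD44lo CD62Lhi, came from a site the labels abbreviate as mLN, so a difference from naive cells cannot be told apart from a difference of tissue. All 4 groups received HDM, and the sources used here do not give strain or age. Each list holds, for 1 pair of populations, the position of each region and a log2 fold, the first-named population minus the second, which is the authors' own value. The lists hold no replicate values, read counts or p-values, so the folds carry no error, the depth is unknown and no difference could be tested over samples. Counts over genes below are descriptions.

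Ribosomal proteins clothe the ribosomal RNA of the large (60S) and small (40S) subunits, most of them as a single copy in each ribosome, and their genes are transcribed at a high rate in nearly every cell. In mammals their transcripts usually begin in a short run of pyrimidines, through which mTOR signalling controls their translation. Activation of a resting T cell through its antigen receptor raises ribosome production.

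The promoters below belong to the genes with the largest folds against other effector cells, to genes with a region listed against naive cells, and to genes that the 1 kb rule left without a region. Each runs from 150 bases before to the tenth base of the RefSeq transcript start, 5′ to 3′ on the gene's strand, and was taken from RefSeq on build GRCm38.p6. Capitals mark matches, on either strand, to the ETS family core CCGGAAG, the YY1 core AAGATGG, the GC box GGGCGG, the TATA box core TATAAA, the CCAAT box, the palindromic CGCG element bound by BANP and the palindromic NRF1 site, and matches on the gene's strand to the pyrimidine run CTTTCC within 30 bases of the start. Overlapping matches share capitals.
Rps19 (chr7:24884442-24884601, plus strand): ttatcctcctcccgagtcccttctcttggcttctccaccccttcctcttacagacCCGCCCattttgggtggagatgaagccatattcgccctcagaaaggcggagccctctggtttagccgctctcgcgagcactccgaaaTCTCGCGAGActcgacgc
Rps21 (chr2:180257229-180257388, plus strand): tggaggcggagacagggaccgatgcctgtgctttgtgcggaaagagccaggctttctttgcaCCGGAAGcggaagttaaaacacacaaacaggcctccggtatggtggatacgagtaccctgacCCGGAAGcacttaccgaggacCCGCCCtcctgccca
Rps3 (chr7:99483700-99483859, minus strand): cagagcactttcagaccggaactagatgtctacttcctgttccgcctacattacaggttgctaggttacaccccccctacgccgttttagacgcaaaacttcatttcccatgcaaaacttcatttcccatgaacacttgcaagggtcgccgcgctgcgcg
Rpl37 (chr15:5116463-5116622, plus strand): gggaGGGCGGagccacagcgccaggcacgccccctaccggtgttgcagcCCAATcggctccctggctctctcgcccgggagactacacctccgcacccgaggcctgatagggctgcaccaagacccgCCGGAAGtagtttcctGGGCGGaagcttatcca
Rpl15 (chr14:18270977-18271136, minus strand): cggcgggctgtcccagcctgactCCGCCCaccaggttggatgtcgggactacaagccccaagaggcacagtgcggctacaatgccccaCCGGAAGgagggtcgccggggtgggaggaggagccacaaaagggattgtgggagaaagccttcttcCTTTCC
Rpl19 (chr11:98026560-98026719, plus strand): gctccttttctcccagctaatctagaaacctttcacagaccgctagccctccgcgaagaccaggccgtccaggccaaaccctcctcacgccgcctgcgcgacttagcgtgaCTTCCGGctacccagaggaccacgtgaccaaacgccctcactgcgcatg
Rpl10l (chr12:66284392-66284551, minus strand): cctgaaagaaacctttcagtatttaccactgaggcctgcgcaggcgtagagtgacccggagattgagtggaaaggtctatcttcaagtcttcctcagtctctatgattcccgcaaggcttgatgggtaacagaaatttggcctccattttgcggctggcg
Rpl22 (chr4:152325576-152325735, plus strand): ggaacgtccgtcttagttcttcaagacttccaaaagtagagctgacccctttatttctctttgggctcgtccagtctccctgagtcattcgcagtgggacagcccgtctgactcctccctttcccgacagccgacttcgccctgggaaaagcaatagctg
Rps21, Rpl37 and Rpl15 each carried the ETS core and the GC box in this stretch, with a CCAAT box also in Rpl37. The stretch of Rpl15 ended in the pyrimidine run, which lies in the first 10 bases of its RefSeq transcript. Rps19 carried a GC box and the CGCG element, and Rpl19 the ETS core. No searched motif was in the stretches of Rps3, Rpl10l and Rpl22.

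In each of the 3 lists with other effector cells these had the lower value at every region, 17700 against naive, 28175 against Th2 and 24765 against Treg cells, so the direction of ribosomal protein regions in these lists is fixed and is no finding. Marker genes of the sorted populations were counted by regions within the gene or 1 kb of it. Against other effector cells, all 6 Th2 markers had a region higher in Th2, all 4 Treg markers one higher in Treg and all 4 naive markers one higher in naive cells. That direction was fixed for the markers too, so it does not check the identity of the populations. The naive genes also set how the sign was read, so they check nothing. The lists did not keep the populations' markers apart: Treg cells also had 29 regions at 4 of 6 Th2 markers, against 28 in Th2 cells, and 12 at all 4 naive markers, and Th2 cells had 11 at 3 of 4 Treg markers. Set directly against each other, Treg cells had 12 regions at 3 of 4 Treg markers above Th2 cells, while Th2 markers had 1 region higher in Treg (Gata3) and 1 higher in Th2 cells (Pparg). Against naive cells, where either direction was listed, Th2 markers had 19 regions at 5 of 6 genes higher in Th2 cells and 0 lower. Treg markers had 11 at 4 of 4 genes higher in Treg cells and 0 lower. Treg cells were also above naive cells at 11 regions of 2 Th2 markers (Il1rl1 and Pparg). In naive versus Th2, Treg markers had 2 regions higher in Th2 (Ctla4 and Ikzf2) and 1 higher in naive cells (Foxp3). Markers of other cell types moved with the same contrasts. With Th2 above other effector cells there were 7 regions at 3 of 4 myeloid genes (Lyz2 had none), 6 at 2 of 4 epithelial and stromal genes, 2 at 1 of 4 B cell genes and 2 at 1 of 4 CD8 and natural killer genes. For Treg over other effector cells these were 3 at 2 of 4, 12 at 4 of 4, 2 at 2 of 4 and 1 at 1 of 4. General T helper genes were also listed as lower in other effector cells. Cd3d, Cd3e, Cd4 and Lck had 6 regions higher in naive cells. Treg cells had 4 higher regions (Cd3e, Cd4 and Lck) and Th2 cells 1 (Lck). The part of all these markers in the results below was not tested.

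Ribosomal protein genes were listed mainly in 2 of the 6 comparisons. Against other effector cells, 62 of 81 genes (76.5%) had a region higher in Th2 cells, where 38.6% of all protein-coding genes did. In Treg cells 59 of 81 genes (72.8%) had a region above other effector cells, where 35.2% of all genes had one. Both subunits were covered alike, with 38 of 50 large and 24 of 31 small subunit genes in Th2 cells and 36 of 50 and 23 of 31 in Treg cells. The 2 comparisons share the other effector samples, so they are not separate observations. Naive cells were above other effector cells at regions of 8 genes (9.88%), close to the 8.33% of all genes. Between naive, Th2 and Treg cells few were listed. In naive versus Th2, 2 genes (2.47%) had a region higher in naive, with 1.25% of all genes, and 1 (1.23%) had one higher in Th2 cells, with 2.48%. In Treg versus Th2, 1 gene (1.23%) had a region higher in Treg, with 0.795% of all genes, and 2 (2.47%) had one higher in Th2 cells, with 1.91%. In naive versus Treg cells 0 of 81 were listed, with 0.85% of all genes for naive and 1.31% for Treg cells as the higher population. Absence from a list does not show that 2 populations were alike, since regions outside the lists were not analysed here.

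**Figure D1:**
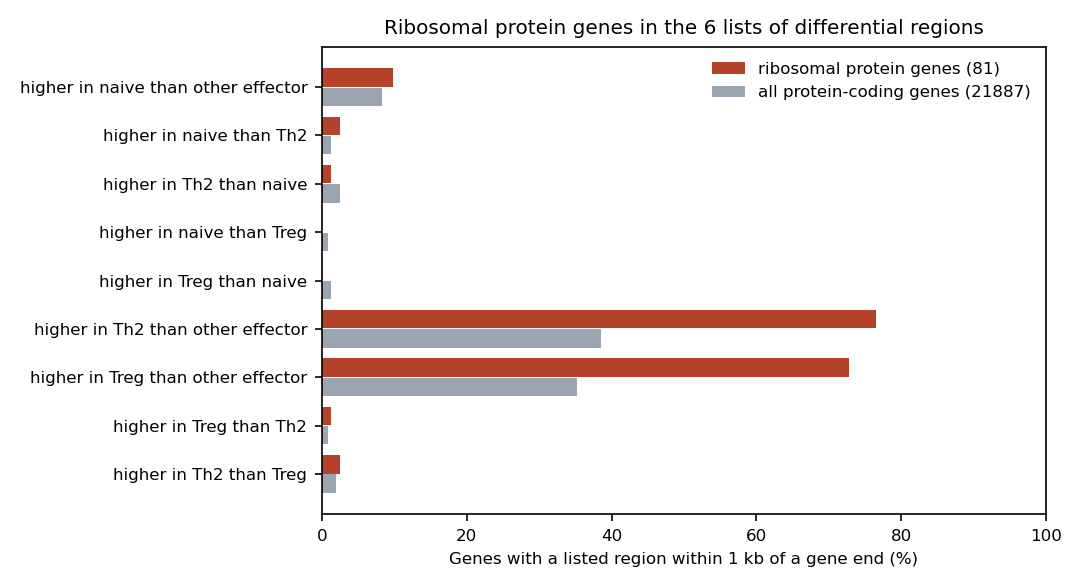
Percentage of the 81 ribosomal protein genes (red) and of all 21887 protein-coding genes (grey) with a listed region within 1 kb of a gene end, for each direction of the 6 comparisons. The red bars reach 76.5% and 72.8% for Th2 and Treg over other effector cells and stay at or under 9.88% elsewhere.

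Other lists of broadly expressed genes had like shares. Of 39 translation factor genes, 36 (92.3%) had a region higher in Th2 and 29 (74.4%) a region higher in Treg cells. Genes for ribosome assembly and rRNA synthesis, such as those of RNA polymerase I and nucleolar proteins, numbered 40 of 51 (78.4%) and 34 of 51 (66.7%). Mitochondrial ribosomal proteins, which serve the separate ribosome of that organelle, numbered 56 of 78 (71.8%) in each. Proteasome subunits reached 80.6% and 71.0%, subunits of oxidative phosphorylation 71.2% and 69.7%, and a list of 24 housekeeping genes, which shares Psmb4 and Sdha with the lists before it, held 18 and 14 such genes. Of 8 ribosomal genes whose names fall outside the rule, 4 were listed for Th2 (Rpl22l1, Rpl36al, Rpl7l1 and Rps3a1) and 5 for Treg cells, Fau and Rack1 among them. Fau encodes a ribosomal protein fused to a ubiquitin-like protein, and Rack1 is a small subunit scaffold.

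Ribosomal protein pseudogenes, which are mostly copies of the mRNA set back into the genome without a promoter, were rarely listed. Of 317 named as pseudogenes of these families, 5 (1.58%) had a region within 1 kb of an end that was higher in Th2 and 0 had one higher in Treg cells. How reads that match several copies were mapped is not stated in these sources.

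**Figure D2:**
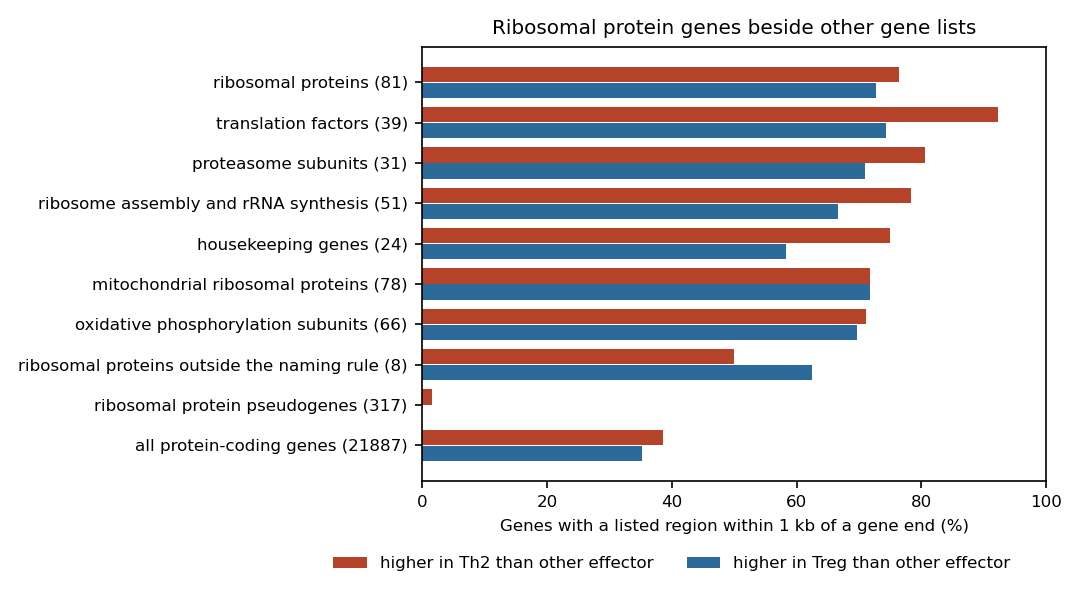
Percentage of genes with a listed region within 1 kb of a gene end, higher in Th2 (red) or Treg (blue) than in other effector cells, for ribosomal proteins, 8 other lists and all protein-coding genes, with the number of genes in brackets. Ribosomal proteins (76.5% and 72.8%) sit among the other lists of broadly expressed genes, and ribosomal protein pseudogenes are at 1.58% and 0%.

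Where the reference gives a strand, most regions listed against other effector cells lay near the start. A promoter entry with strand was found for 61 of the 81 genes, among 17492 of all genes. Of the regions near these genes, 45 of 50 in Th2 and 43 of 48 in Treg cells were nearer the lower or upper end at which the gene starts, and 44 and 40 were within 1 kb of the RefSeq start itself. Those of Rpl18, 2771 bp upstream of its RefSeq start and 93 bp from that of Sphk2, and of Rpl19, at least 4043.5 bp upstream, were not. Both genes also had a region higher in Treg cells at their own RefSeq start that the gene-end rule missed. Other effector minus Treg was -5.52 for Rpl18, 46.5 bp downstream, and -5.03 for Rpl19, 60 bp downstream, in the authors' deposited table. Within 1 kb of a RefSeq start itself, 46 of 61 genes (75.4%, all genes 40.7%) had a region higher in Th2 and 45 (73.8%, all genes 36.7%) one higher in Treg cells. Midpoints lay between 431 bp upstream and 515.5 bp downstream in Th2 cells, with a median 70.5 bp downstream, and 41 of 47 were within 300 bp. In Treg cells the median was 51 bp downstream, and 42 of 45 were within 300 bp. A place near the start was common in these lists and is not particular to ribosomal protein genes. Over all protein-coding genes, 7368 regions higher in Th2 lay within 1 kb of a RefSeq start and 8329 within 1 kb of a gene end. For Treg cells these were 6530 and 7529. The ribosomal protein regions were broad, with a median width of 918.5 bp in Th2 and 874 bp in Treg cells, against 860 and 857 bp for all listed regions within 1 kb of a gene end and 446 and 516 bp for all listed regions.

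The name promoter fits most members but not all. Regions nearer the gene end belonged to Rpl3l, Rpl4, Rpl41, Rps15a and Rps9 in Th2 and to Rpl3l, Rpl4, Rpl41, Rps18 and Rps19 in Treg cells. Several of these lay at the start of a neighbour: 99 bp from that of Msrb1 for Rpl3l, a paralog of muscle, 82 bp from that of Snapc5 for Rpl4, which lines the exit tunnel of the large subunit, 103.5 bp from that of Zc3h10 for Rpl41, and 78 bp from that of B3galt4 for Rps18. Rpl4 had no region at its own start. Of the pairs of gene and region, 15 of 68 in Th2 and 20 of 67 in Treg cells were also within 1 kb of an end or start of another protein-coding gene, as for Rpl7a with Med22, 21 bp from the midpoint, and Rps18 with Vps52, 8 bp away.

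Folds of ribosomal protein regions lay within the range of other gene-end regions. Other effector minus Th2 ranged from -8.39 to -4.34 with a median of -6.29 over 68 regions in the authors' deposited table, where the median of 8329 regions within 1 kb of any gene end was -6.20 and that of all 28175 regions -5.40. Other effector minus Treg ranged from -7.93 to -3.69 with a median of -6.64 over 67 regions in the authors' deposited table, against -6.14 for 7529 gene-end regions and -5.38 for all. By subunit the medians were -6.31 (large, 42 regions) and -6.17 (small, 26) for Th2 and -6.62 (41) and -6.66 (26) for Treg cells in the authors' deposited tables. Every listed fold was at least 3.46 in size in the first table and 3.48 in the second, the smallest values they hold, so lower differences are not part of these ranges.

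Large subunit genes were led by Rpl37, with other effector minus Th2 of -8.07 and other effector minus Treg of -7.67 in the authors' deposited tables. Its region, on chromosome 15 at 5116071 to 5116944, covered the whole stretch of its promoter shown above. Rpl15 followed in Th2 cells, with -7.85, and had -6.64 in Treg cells, in the authors' deposited tables. For Rpl4 the values were -5.45 and -7.62 and for Rpl3, which sits near the peptidyl transferase centre, -4.96 and -7.38, so the deposited fold was larger in size for Treg cells. It was larger for Th2 cells at Rpl9, with -6.54 for Th2 and -4.43 for Treg cells in the authors' deposited tables. Rpl11, which with Rpl5 and 5S rRNA forms the particle that can bind Mdm2, had -6.29 and -7.35, whereas Rpl5 was listed for Th2 only, at -6.13 in the authors' deposited table. The smallest size for Th2 cells was that of Rpl19, -4.34, at the narrow regions beside Cacnb1 described below, where Treg cells had -4.77 and -4.60 in the authors' deposited tables. Rpl23, with -4.70 and -4.92, and Rpl37a, with -5.10 and -4.70, had low values at their starts and were picked out after their values were seen.

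The stalk of the large subunit, which recruits elongation factors, is built from Rplp0, Rplp1 and Rplp2. Rplp0, the base of the stalk, had other effector minus Th2 of -7.41 and other effector minus Treg of -6.81 in the authors' deposited tables. Rplp1 (-6.28) and Rplp2 (-6.32) were listed for Th2 cells only, in the authors' deposited table. The Rplp2 region lay 143.5 bp upstream of its start and inside Pidd1 as well.

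Small subunit genes included the largest fold of all members, that of Rps19, the gene most often mutated in Diamond-Blackfan anaemia, with other effector minus Th2 of -8.39 and other effector minus Treg of -7.50 in the authors' deposited tables. Rps21 (-8.35 and -7.30) and Rps29 (-8.21 and -7.71) came next for Th2 cells. In Treg cells Rps14 (-7.93) and Rps3 (-7.83), a protein of the mRNA entry channel, were furthest from other effector cells, and both were nearer in Th2 cells, with -6.53 and -5.92 in the authors' deposited tables. Rpsa, a small subunit protein also known as a laminin receptor, had -6.59 and -7.29, and Rps6, the substrate of S6 kinase, -6.33 and -6.45. Rps27a, made as a fusion with ubiquitin, was listed for Treg cells only, at -6.66 in the authors' deposited table. The start of Rps18 had -5.19 and -6.26 in the authors' deposited tables, and its region beside B3galt4 -6.31 for Treg cells.

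**Figure D3:**
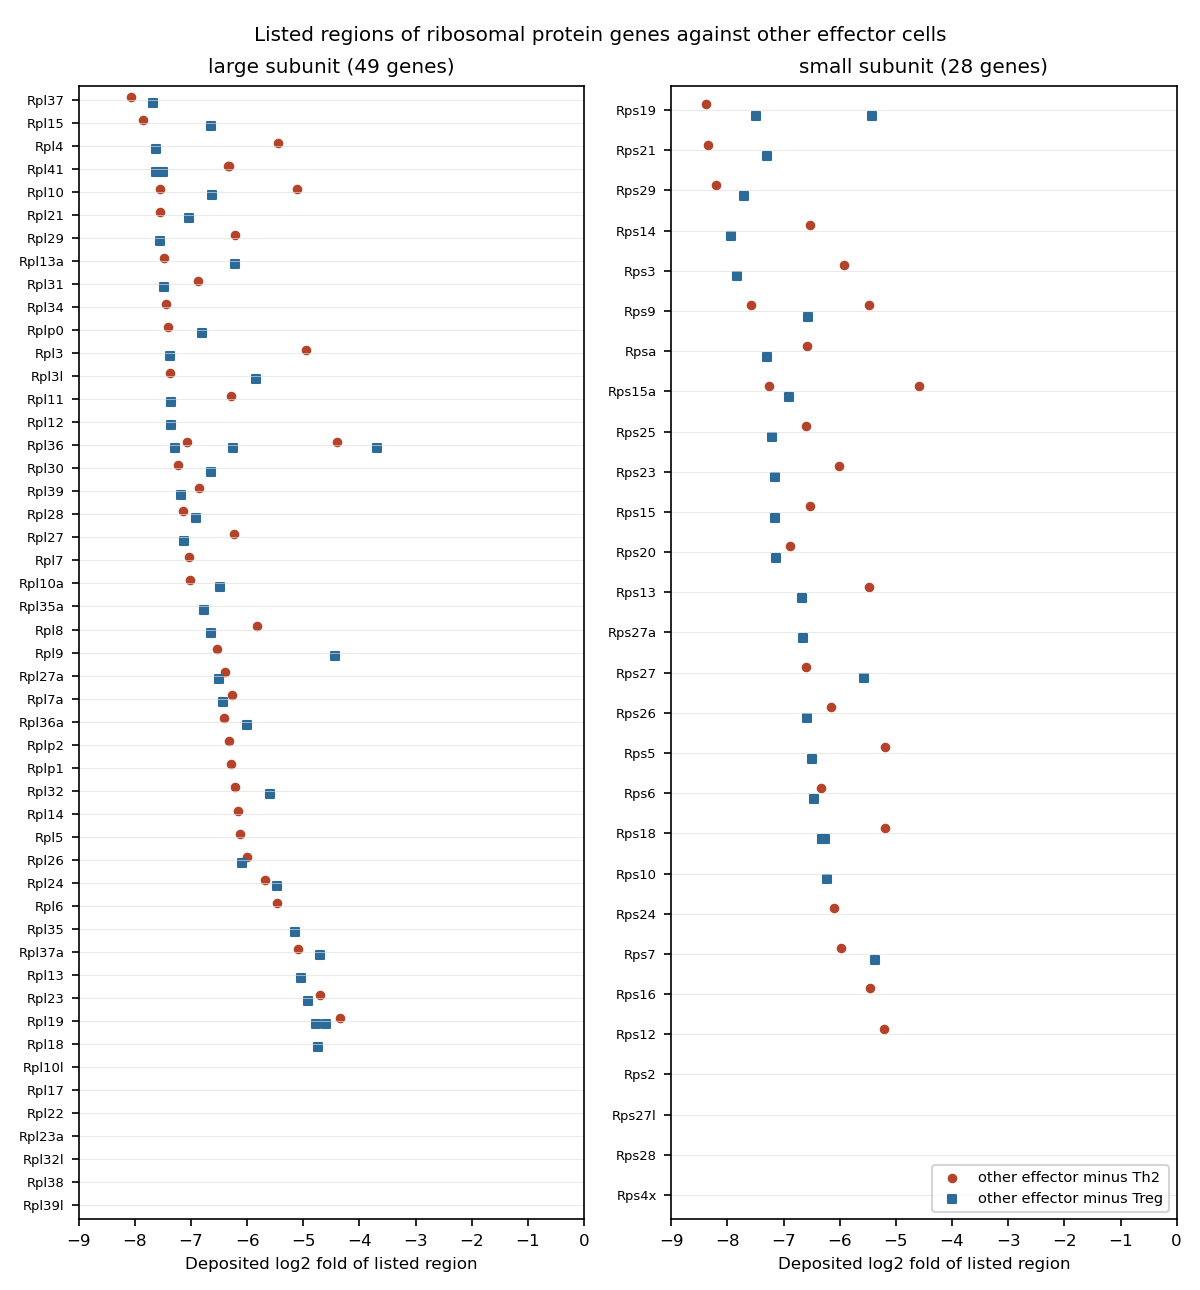
Deposited log2 fold (horizontal axis) of each listed region within 1 kb of an end of 77 ribosomal protein genes (rows, ordered by the largest fold in size), other effector minus Th2 (red circles) and other effector minus Treg (blue squares), for 49 large and 28 small subunit genes. Rows without a symbol are 11 genes without a region; values run from -8.39 (Rps19) to -3.69 (Rpl36).

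Genes listed for 1 of the 2 populations are not shown to differ between them. Their shares were near those of all genes. For Th2 cells alone these were 10 genes (12.3%, all genes 12.2%), Rpl14 (-6.16), Rpl34 (-7.45), Rpl5, Rpl6 (-5.46), Rpl7 (-7.03), Rplp1, Rplp2, Rps12 (-5.22), Rps16 (-5.46) and Rps24 (-6.11), in the authors' deposited table. For Treg cells alone they were 7 (8.64%, all genes 8.84%), Rpl12 (-7.35), Rpl13 (-5.05), Rpl18 (-4.74), Rpl35 (-5.14), Rpl35a (-6.76), Rps10 (-6.22) and Rps27a. Among these genes Rpl7 alone was also listed in Treg versus Th2. Where the same interval was listed for both populations, at 54 regions, the 2 folds give a Treg minus Th2 value in which the other effector samples cancel. It ran from -2.11 (Rpl9) to 2.42 (Rpl3), with a median of 0.21 and 33 of 54 values (61.1%) within 1 log2 unit of 0. All 11971 such regions had a median of 0.05, with 67.7% within 1 log2 unit. The smallest fold in the Treg versus Th2 table was 3.95, and 0 of the 54 regions were in it.

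Several genes had more than 1 region in a list. Rpl36 had 3 for Treg cells, with -7.28, -6.26 and -3.69 in the authors' deposited table, of which the last 2 lay within 1 kb of an end of Lonp1, and 2 for Th2 cells, with -7.08 and -4.40. Rpl41, which encodes a short basic peptide, had 2 in each list, with -6.34 and -7.62 at the start and -6.33 and -7.50 beside Zc3h10. Rpl10 had -7.56 upstream and -5.11 downstream of its start for Th2 cells, and Rps15a -7.26 at the start and -4.58 at its end, in the authors' deposited table. Regions under 300 bp wide ranged in fold from -5.11 to -4.34 for Th2 (3 regions) and from -5.43 to -3.69 for Treg cells (7), while medians at 700 bp or more were -6.29 (57) and -6.66 (53). All gene-end regions had medians of -4.69 and -4.58 under 300 bp and -6.64 and -6.63 at 700 bp or more, in the authors' deposited tables.

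Regions listed against naive cells lay elsewhere. Of the 8 genes with a region where naive cells exceeded other effector cells, 0 had it within 400 bp of a gene end, where 54.3% of all pairs of gene and region in that table did, and the median distance was 767 bp, against 355.5 bp for all genes. In the Th2 and Treg lists the medians were 162.25 and 137.5 bp for ribosomal protein genes and 195.5 and 197.5 bp for all genes. By RefSeq start, 1 of 61 genes (1.64%) had a region within 1 kb, where 7.26% of all genes did. That gene was Rpl15, with a region of 215 bp and naive minus other effector of 4.63 in the authors' deposited table, 911 bp upstream of its start and inside Nkiras1. Rps12 had 4.70, 1171 bp upstream of its RefSeq start. The region of Rpl19 (5.94) was 4040 bp upstream of the RefSeq start of that gene, near the lower end of its gene record, and 43 bp from the start of Cacnb1, a calcium channel subunit gene. Rps10 (5.38) and Rps19 (5.95) had theirs past the end of the gene. For Rpl29 (7.44) and Rpl3 (5.85) the strand is not given, and the regions lay near the lower-coordinate end in the authors' deposited table. The region of Rpl3 for naive cells did not overlap that at the opposite end of the gene, which was higher in Th2 cells, with -4.96, whereas that of Rpl29 started at the same base as its region for Th2 and Treg cells (-6.21 and -7.55).

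Few regions of members separated naive, Th2 and Treg cells. Strand was known for 2 pairs of gene and region in naive versus Th2 and 2 in Treg versus Th2, all away from RefSeq starts. The shares over all genes are also low, so the 0 of 61 below is not a trait of these genes. Within 1 kb of a RefSeq start there were 0 of 61 members in each of these lists, with 0.829% of all genes higher in naive and 2.54% higher in Th2 for naive versus Th2, 0.635% and 1.13% higher in naive and in Treg for naive versus Treg, and 0.726% and 2.0% higher in Treg and in Th2 for Treg versus Th2. Downstream of Rps19, on chromosome 7 at 24890280 to 24890784 and 6965 bp from Cd79a, a B cell receptor gene, naive minus other effector was 5.95 and naive minus Th2 6.13 in the authors' deposited tables. An interval of 276 bp within it, 24890504 to 24890779, had other effector minus Treg of -5.43 and Treg minus Th2 of 5.61 in the authors' deposited tables. Naive and Treg cells were thus both above Th2 and other effector cells there, while at the start of the same gene Th2 and Treg cells were above other effector cells. B cell markers had 13 regions at 3 of 4 genes (Cd79a, Ebf1 and Ms4a1) higher in naive over other effector cells, a direction fixed in that list. They had 4 at 1 gene (Ebf1) higher in naive over Th2 cells and 0 in Treg versus Th2. Cd3e, Cd4 and Lck had 3 regions higher in naive over Th2 cells. CD8 and natural killer markers had 4 (Cd8b1 and Prf1) higher in naive and 1 (Nkg7) higher in Th2 cells. The part of these markers here was not tested.

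Downstream of Rps9, on chromosome 7 at 3706943 to 3707525 and 5271 bp from Pirb, a receptor gene of myeloid and B cells, Th2 cells were above all 3 other populations: naive minus Th2 was -7.75, other effector minus Th2 -7.58 and Treg minus Th2 -7.59 in the authors' deposited tables. The start of Rps9 had -5.48 and -6.56 for other effector minus Th2 and minus Treg. Myeloid markers had 2 regions at 2 of 4 genes higher in Th2 in both naive versus Th2 (Csf1r and Itgam) and Treg versus Th2 (Cd14 and Csf1r). Itgam also had 1 region higher in naive than in Th2 cells, and the part of these markers was not tested. Higher in Th2 than in Treg cells was also a region of 1909 bp at the upper end of Rpl7, on chromosome 1 at 16104118 to 16106026 and 810 bp from Rdh10, with Treg minus Th2 of -7.03 and other effector minus Th2 of -7.03 in the authors' deposited tables. The fold was thus the same from either population, and the strand of Rpl7 is not known from the reference used.

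**Figure D4:**
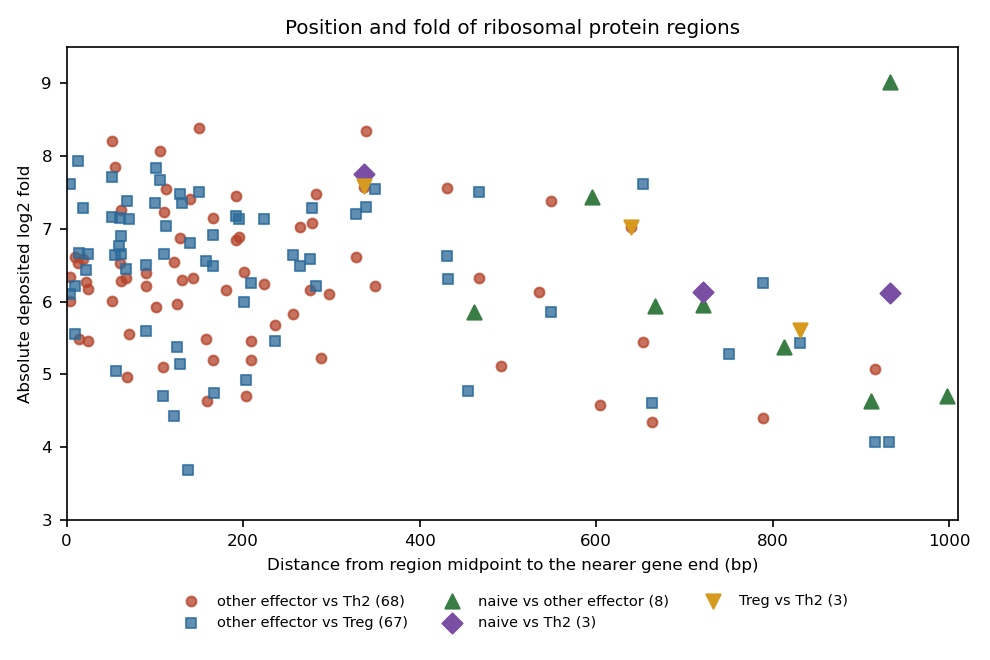
Absolute deposited log2 fold (vertical axis) against the distance in bp from region midpoint to the nearer gene end (horizontal axis) for each ribosomal protein region, with the number of pairs of gene and region in brackets. Most of the 68 and 67 pairs for Th2 and Treg versus other effector cells lie within 400 bp (57 and 55, where the shares over all genes are 75.4% and 74.1%), and the 8 for naive versus other effector cells lie between 461 and 997 bp.

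Of the 12 genes without a region by the rule, 4 had one within 1 kb of their RefSeq start. Rpl22, a protein needed for development of alpha-beta T cells, had other effector minus Th2 of -7.09 and other effector minus Treg of -7.52 in the authors' deposited tables, 168 bp downstream of the start whose promoter is shown above. Rps27l, a paralog induced by p53, had -6.11 and -6.84, Rpl38 -6.10 for Th2 and Rps2 -7.13 for Treg cells. With these, 65 of 81 genes were listed for Th2 and 62 for Treg cells, and 8 genes had no region in any table, among them Rpl10l, Rpl17, Rpl23a, Rpl32l, Rpl39l, Rps28 and Rps4x. Rpl10l and Rpl39l are paralogs known from testis. Of the 5 paralogs whose symbols end in l, Rps27l alone had a region within 1 kb of its own RefSeq start. Just inside the 1 kb limit were Rps12 at 997 bp (4.70) and Rpl15 at 911 bp (4.63), both naive minus other effector, and just outside were Rpl22 at 1002.5 bp (-4.20, other effector minus Treg) and Rps10 at 1011 bp (-4.90), in the authors' deposited tables.

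Some sequence features, which the naming rule did not use, were more frequent in promoters of the members than in all promoters. In RefSeq promoters of 300 bases, from 250 before to 50 after the start, CCGGAAG was in 24 of 61 (39.3%) ribosomal protein promoters, 11.9% of all 17492 and 19.7% of the 8684 with a region at the start against other effector cells. Mitochondrial ribosomal proteins, at 36.2%, had a like share. The CGCG element was in 5 of 61 (8.20%), 0.715% and 1.14%, and the pyrimidine run CTTTCC within 30 bases of the start in 10 of 61 (16.4%), 2.72% and 2.71%, with 2.90% of mitochondrial ribosomal protein promoters. The base at the RefSeq start was C in 20 of 61 (32.8%), 13.7% and 14.6%, and C or T in 28 of 61 (45.9%), 23.1% and 23.9%. This is the annotated base, since the start of transcription was not measured here. AAGATGG was in 13.1%, 6.37% and 7.27%, CCAAT in 31.1%, 39.0% and 39.5%, and the NRF1 site in 1.64%, 1.32% and 2.26%. Mitochondrial ribosomal protein promoters had AAGATGG in 18.8%, CCAAT in 39.1% and the NRF1 site in 4.35%, each above the share of the members. Their shares for the CGCG element (1.45%) and for C at the start base (15.9%) were below those of the members. For other features the direction depended on the promoters compared. GGGCGG was in 57.4% of ribosomal protein promoters, above the 46.3% of all and below the 67.3% of those with a listed start. TATAAA was in 9.84%, below 13.3% and above 6.52%. The median GC content was 57.0%, against 56.3% and 61.3%.

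Folds at promoters with and without the ETS core differed little. For other effector minus Th2 the median was -6.33 with CCGGAAG (19 regions) and -6.26 without (28), and for other effector minus Treg -6.74 (20) and -6.62 (25), in the authors' deposited tables. With CTTTCC the medians were -7.15 (5 regions) for Th2 and -6.22 (7) for Treg cells, and without it -6.28 (42) and -6.79 (38), so the difference had opposite signs in the 2 lists. Rpl15, whose promoter above ends in that run, and Rpl28 (-7.15 and -6.91) were among them. These values are descriptions of the listed regions, and a match is no evidence of binding.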

How the data were processed

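The deposited values are log2 folds of differential regions, which the authors made with DiffBind, per the submitters' processing notes. These give no version, and name build mm9, whereas 21.3% of regions had midpoints within 1 kb of GRCm38.p6 gene ends and 5.69% to 6.14% after shifts of 10 or 100 kb, so GRCm38 was used. The sources used here state no aligner, peak caller, normalization or threshold. The log2 scale was taken from the tool named. Folds were additive at the 4 regions listed for every pair among 3 populations. The sign was read from 4 naive marker genes, with 44, 24 and 17 regions higher in naive cells and 0 lower, so these genes are no check of the naive label. Titles say day 15, and descriptions of 2 populations D10. Titles were followed, and the protocol for the tissue of naive cells.

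Coordinates are 1-based. Genes and promoters came from RefSeq, starts from its promoter table (1 entry per gene for motifs, the first listed). All comparison list genes matched, and 4 of 5 general T helper markers, which had 1 region (Lck) higher in Th2 and 4 (Cd3e, Cd4 and Lck) higher in Treg than other effector cells, 6 at 4 genes higher in naive than other effector cells, 3 (Cd3e, Cd4 and Lck) higher in naive than Th2 cells and 1 (Cd4) higher in Treg than Th2 cells. Python 3.11.15 with pandas 2.3.3 was used. Matching of regions to genes was checked on 400 simulated regions. Members, lists and rules were chosen with earlier results of these data known; motif, width and pseudogene summaries were added after the data were examined. Named are the 5 largest and 3 smallest folds of a table, members listed between naive, Th2 and Treg cells, those with several or no regions, and a fixed set. Promoter sequences followed the ranking of folds, passing over genes without an entry and chromosome 18. Members outside the 61 with a promoter entry have no strand here. Some members are counted but not reported here by name.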

Additional observations from a re-analysis of the deposited data

How the results depend on the processing

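No paired analysis was possible because the deposited tables hold no replicate columns, and no replicate could be left out. Distances of 500 bp and 2 kb, overlap with a gene end, RefSeq starts only, a fold at or above the lower quartile of the table, a wider membership and removal of regions near another gene were tried, giving 60 values beside the main ones. Counts are over 81 genes, except 61 with RefSeq starts only and 89 with the wider membership, so they are not all over the same genes. The counts for Th2 and Treg over other effector cells stayed within 1.5 times, at 46 to 66 and 44 to 64 genes against 62 and 59. The small counts moved. For naive versus other effector cells 8 genes became 1 at 500 bp, 2 with overlap and 1 with RefSeq starts only. For naive versus Th2 3 became 1, 0 and 0, and for Treg versus Th2 3 became 1, 1 and 0 under the same settings. In naive versus Th2 the median fold of 6.12 became -7.75 at 500 bp, where Rps9 alone was left, and in Treg versus Th2 -7.03 became -0.99 without regions near another gene, where 2 regions of opposite direction were left. Depth is unknown, so a gene without a listed region cannot be called closed or unchanged.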
